A study of Mus musculus with 8 samples.

Results

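Rab GTPases are small switch proteins that label the membranes of a cell and direct vesicles between them. The genes described here are those whose symbol is Rab followed by a number and at most 1 letter from a to d. This gave 59 of the 55414 genes in the count table. Of these, 47 passed the filter on low counts and were tested, and 12 were not. The cells were iBMDM, an immortalized line of wild-type mouse macrophages, and RNA was sequenced from 8 libraries in 4 groups of 2. Every group was pretreated for 0.5 h and then challenged for 4 h. Control cells received DMSO and then water, the LPS group DMSO and then 1 μg/ml lipopolysaccharide (LPS, a bacterial cell wall component sensed by TLR4), and the DSF group 5 μM disulfiram (DSF, a drug used against alcohol dependence) and then water. The DSF+LPS group received 5 μM DSF and then 1 μg/ml LPS. The study asked whether the drug inhibits the response of TLR4 to LPS. All data come from 1 cell line, and nothing in the labels says whether the libraries of a group came from separate cultures, so a p-value here rests on a spread between libraries that may be technical only.

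A Rab protein is active when bound to GTP and inactive when bound to GDP. Guanine nucleotide exchange factors (GEFs) load it with GTP, GTPase-activating proteins (GAPs) end the signal, and effectors are the proteins it recruits while active. A prenyl anchor holds it on the membrane, from which its inactive form can be taken back into the cytosol. In macrophages, Rabs are best known for guiding a phagosome from early endosome to lysosome, for moving TLR4 to and from the cell surface, and for secretion. Every quantity below is a messenger RNA level: none measures a Rab protein or its activity.

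The promoters of 4 Rab genes, chosen after their values were seen, are shown as examples of opposite behaviour. Rab20 and Rab5a were higher than control with either agent alone. Rab3a and Rab27a were lower with LPS alone and lay near the DSF level when the drug came before it. Each line gives the 250 bases before an annotated transcription start from RefSeq on GRCm38.p6, an older build than the GRCm39 named in the submitters' processing notes. Capitals mark a match to the E-box CACGTG or to the heat shock element core GAANNTTC. Positions are chr8:11478641-11478890 on the minus strand for Rab20, chr17:53478984-53479233 on the plus strand for Rab5a, chr8:70754453-70754702 on the plus strand for Rab3a and chr9:73044560-73044809 on the plus strand for Rab27a. Rab3a and Rab27a each have another annotated start, whose window is not printed.
Rab20: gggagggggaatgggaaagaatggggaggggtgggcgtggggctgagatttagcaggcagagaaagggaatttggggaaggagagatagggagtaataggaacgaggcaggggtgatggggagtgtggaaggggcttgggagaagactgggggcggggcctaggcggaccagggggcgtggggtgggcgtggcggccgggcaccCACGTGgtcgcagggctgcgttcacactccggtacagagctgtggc
Rab5a: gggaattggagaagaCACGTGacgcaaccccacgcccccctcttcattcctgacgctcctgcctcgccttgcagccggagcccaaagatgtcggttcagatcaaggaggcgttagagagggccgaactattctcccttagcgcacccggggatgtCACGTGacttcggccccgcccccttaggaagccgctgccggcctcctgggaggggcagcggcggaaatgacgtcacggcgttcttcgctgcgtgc
Rab3a: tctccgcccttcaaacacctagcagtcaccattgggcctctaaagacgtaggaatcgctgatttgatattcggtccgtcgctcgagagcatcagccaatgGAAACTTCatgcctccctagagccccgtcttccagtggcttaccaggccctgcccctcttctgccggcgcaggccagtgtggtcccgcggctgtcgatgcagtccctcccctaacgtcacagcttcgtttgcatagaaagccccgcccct
Rab27a: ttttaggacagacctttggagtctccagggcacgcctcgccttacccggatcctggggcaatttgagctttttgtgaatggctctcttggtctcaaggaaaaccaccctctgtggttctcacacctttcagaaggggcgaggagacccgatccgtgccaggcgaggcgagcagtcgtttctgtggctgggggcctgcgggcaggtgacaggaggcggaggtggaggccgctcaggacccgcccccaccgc
The Rab20 window holds 1 E-box, 46 bases before the start. The Rab5a window holds 2, at 235 and 95 bases before it, and the Rab3a window holds 1 heat shock core, 150 bases before its start. The Rab27a window shown holds no match to any of the 6 motifs searched on both strands. The window at its other start holds 1 E-box, 246 bases before that start, and the window at the other start of Rab3a holds no match.

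Promoter windows were available for 48 of the 59 genes, 60 windows in all, each with 250 bases before and 50 after the start. The E-box CACGTG was in 10% of the Rab windows and 7.15% of all 32851 windows. The antioxidant response element core TGACNNNGC was in 16.67% and 12.39%, AP-1 TGACTCA in 5% and 5.202%, and the heat shock core GAANNTTC in 5% and 7.86%. The NF-kB motif GGGANTTTC was in 0 of the Rab windows and in 1.111% of all, and the interferon response motif TTTCNNTTT in 3.333% and 10.55%. A match is a string of letters, and no binding was measured.

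Library totals ran from 17822041 to 21694922 counts. All 8 macrophage markers (such as Adgre1, Csf1r and Lyz2) had counts in every library, summing to between 1994 and 2603 CPM, the count of a gene relative to the total of its library. Marker lists of neutrophils, dendritic cells, lymphocytes, fibroblasts, neurons and melanocytes summed to at most 7.18 CPM, and that of epithelial and endothelial cells to between 8.10 and 13.9. Of their defining genes, S100a9 of neutrophils, Cd8a and Cd3e of lymphocytes and Tyrp1 and Tyr of melanocytes were at 0 in all 8 libraries. Some of these levels moved with the drug. Lymphocyte markers summed to 0.142 to 0.474 CPM in the 4 libraries without DSF and to 1.12 to 2.76 in those with it, neuron markers to 2.08 to 4.26 and 4.43 to 7.18, and neutrophil markers to 0.0561 to 0.663 and 0.611 to 1.55. The macrophage genes Csf1r and Fcgr1 were lower with DSF. Csf1r was at 451 to 542 CPM against 759 to 895, and Fcgr1 at 9.32 to 12.2 against 45.4 to 51.0. Itgam and Spi1 were also lower in every library with DSF than in any without it. Cd68 was higher, at 748.5 to 899.7 CPM against 516.3 to 641.5, and Adgre1, Lyz2 and Mertk overlapped. Libraries with DSF had counts for 23416 to 25081 genes and those without it for 19779 to 20324. The part of these differences in the results below was not tested.

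Rab genes took a small part of each library. Their summed counts were 0.273% and 0.274% of the total in control, 0.256% and 0.261% with LPS, 0.245% and 0.239% with DSF, and 0.217% and 0.216% with both. The pair with both agents lay below all other libraries. These shares are of unscaled totals, while the fold changes below use scaled ones. The scaling factors were 1.086 and 1.084 in control and 0.965 and 0.980 with LPS. With them the LPS pair lay above control, so the lower Rab share with LPS depends on scaling. Totals of this kind weigh abundant genes most, and in bulk RNA fewer cells that use a gene and less of its RNA per cell cannot be told apart.

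Levels of different genes were compared as CPM per kilobase of exon, with the length taken over all annotated exons of a gene, used or not. The order depends on that choice: Rab14, at a mean of 163.8 CPM in control over 13589 bases, came to 12.05 CPM per kilobase. On this scale Rab1b had the highest level in control cells at 100.9 ± 2.60 (SD, n = 2). Rab5c, at 96.5 ± 4.26, did not differ from it beyond that spread. Rab1b carries vesicles from the endoplasmic reticulum (ER) to the Golgi, and Rab5c acts on early endosomes. Rab7, the late endosome Rab that brings phagosomes to lysosomes, came next at 83.4 ± 2.22. Rab1a, at 57.6 ± 0.45, Rab2a, at 50.5 ± 4.41, Rab35, at 38.8 ± 1.14, Rab10, at 38.5 ± 1.15, and Rab31, at 35.5 ± 0.10, followed. Rab7b was ninth in control cells, at 30.1 ± 2.01 CPM per kilobase.

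Of the 12 genes not tested, Rab9b and Rab38 had no count in any library. That allows an expected count of at most about 3 over the 8 libraries (95% bound). Rab38 is the partner of Rab32 in pigment cells. Rab25, known from epithelia, had 45 counts in all. Rab3b had 11, Rab40b 10, Rab17 and Rab26 8 each, Rab44 7, Rab3c 3, Rab42 2, and Rab36 and Rab39b 1 each. Another 9 genes were tested and called in no comparison: Rab4b, Rab6b, Rab9, Rab13, Rab28, Rab33b, Rab34, Rab37 and Rab39. A gene is called, or said to rise or fall, where its Benjamini-Hochberg adjusted p in the edgeR quasi-likelihood test was under 0.05. This left 38 genes called in at least 1 comparison.

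**Figure D1:**
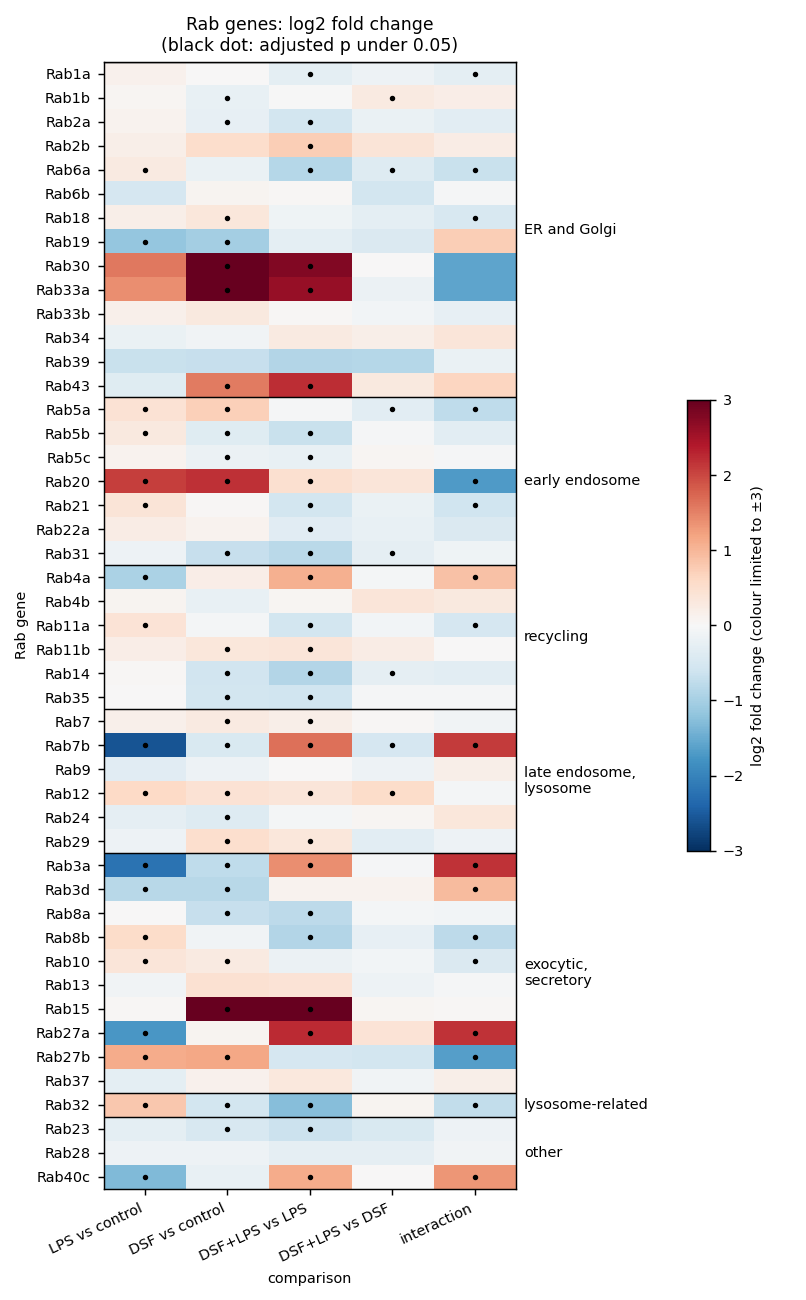
Log2 fold change of the 47 tested Rab genes (rows, grouped by the membrane they serve) in 4 comparisons and in the interaction (columns), with red above 0, blue below 0 and a black dot where adjusted p was under 0.05. Dots are densest in the columns that compare DSF-treated with untreated cells, and sparse in the DSF+LPS against DSF column, where 7 genes carry one.

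LPS alone lowered 7 Rab genes and raised 11. Rab7b, Rab3a, Rab27a, Rab40c, Rab19, Rab4a and Rab3d fell, and Rab20, Rab27b, Rab32, Rab12, Rab8b, Rab5a, Rab11a, Rab21, Rab10, Rab5b and Rab6a rose. Among all 16304 genes tested, 15.2% rose and 13.8% fell, against 23.4% and 14.9% of the Rab genes. Of the Rab genes, 5 (10.6%) fell by 2-fold or more and 2 (4.26%) rose by as much, where 3.64% and 5.35% of all genes did. The median log2 fold change was 0.05 over Rab genes and 0.02 over all genes. The split depended on scaling: with library sizes alone, 7 Rab genes rose and 13 fell, and the median of all genes moved from 0.02 to -0.13. No called gene changed direction under that scaling, but the rises of Rab10, Rab11a, Rab5b and Rab6a were no longer called. The rise of Rab6a, 0.28 (edgeR adjusted p = 0.0403), is also lost without any 1 of the 4 libraries, with no filter on low counts and with DESeq2. The count of rises was also 7 without control replicate 1 or without LPS replicate 1.

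Rab7b had the deepest fall of any Rab gene with LPS. It is a relative of Rab7 known for sending TLR4 to lysosomes. Its level was 133 and 146 CPM in control, 21.9 and 24.3 with LPS, 109 and 94.9 with DSF, and 63.3 and 81.5 with both. No 2 groups overlapped, and the LPS libraries were far below the rest. LPS left 16.6% of the control level, a log2 fold change of -2.59 (SE 0.12, edgeR adjusted p = 3.32e-10). Rab7, its close relative, was at 214 and 222 CPM in control, 239 and 242 with LPS, 256 and 273 with DSF, and 275 and 266 with both, and was not called with LPS.

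The response of Rab7b to LPS was smaller when DSF came first. DSF alone lowered it by 0.45 on the log2 scale (SE 0.11, edgeR adjusted p = 0.00267). LPS on top of DSF lowered it by 0.50 (SE 0.11, adjusted p = 0.0115), a call lost without DSF replicate 1. The difference between the LPS responses with and without the drug, called the interaction below, was 2.10 (SE 0.16, edgeR adjusted p = 4.04e-07). With both agents its level was 3.13-fold that with LPS alone, and still below both DSF libraries.

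Genes of the secretory Rabs Rab3a and Rab27a fell with LPS in untreated cells too. Rab3a, which acts on regulated secretory vesicles and in macrophages on lysosomes, was at 7.18 and 8.06 CPM in control, 2.06 and 1.24 with LPS, 4.25 and 4.70 with DSF, and 4.49 and 4.25 with both. The LPS pair lay lowest and the control pair highest, with the 2 DSF-treated groups overlapping between them. Its LPS change was -2.21 (SE 0.25, edgeR adjusted p = 5.57e-06), and DSF alone changed it by -0.77 (SE 0.22, adjusted p = 0.00701), a call lost without control replicate 2. The interaction was 2.17 (SE 0.34, edgeR adjusted p = 0.000315). Exons of Rab3a overlap those of Mpv17l2 on the opposite strand, which fell by 0.40 with LPS, and since strand handling is not given in the sources used here, reads of the pair may be shared.

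Rab27a, which docks secretory lysosomes and exosomes at the plasma membrane, was at 4.96 and 5.18 CPM in control and at 1.42 and 1.58 with LPS. It was at 4.48 and 6.24 with DSF and at 8.92 and 5.23 with both. The LPS libraries were lowest, and the DSF group overlapped both control and DSF+LPS. LPS changed it by -1.75 (SE 0.30, edgeR adjusted p = 0.000349). The interaction was 2.17 (SE 0.39, adjusted p = 0.00111), and the level with both agents was 4.72-fold that with LPS alone (edgeR adjusted p = 9.72e-06).

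Its paralogue Rab27b moved the other way. It was at 1.60 and 1.70 CPM in control, 4.07 and 3.06 with LPS, 4.25 and 3.15 with DSF, and 3.08 and 1.96 with both. All 6 treated libraries were above control, and the LPS group overlapped each of the other treated groups. LPS raised it 2.15-fold (edgeR adjusted p = 0.0131) and DSF 2.24-fold (adjusted p = 0.00447). The interaction was -1.66 (SE 0.42, edgeR adjusted p = 0.0127). The LPS call is lost without control replicate 1, control replicate 2 or LPS replicate 1, the DSF call without DSF replicate 1, and the interaction call without control replicate 1, DSF replicate 1 or LPS replicate 1.

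Among the other genes that fell, Rab40c, part of a subfamily that joins ubiquitin ligases, was at 31.0 and 31.8 CPM in control, 13.1 and 12.0 with LPS, 26.2 and 27.6 with DSF, and 26.3 and 27.5 with both. The LPS pair stood alone, and the DSF and DSF+LPS pairs overlapped. It changed by -1.33 with LPS (SE 0.11, edgeR adjusted p = 1.92e-07), with an interaction of 1.33 (SE 0.15, adjusted p = 1.59e-05). Rab4a, a Rab of rapid recycling from early endosomes, was at 9.20 and 9.45 CPM in control, 5.54 and 4.16 with LPS, 9.54 and 11.8 with DSF, and 10.3 and 10.1 with both. Only the LPS pair lay below the others. It changed by -0.94 with LPS (SE 0.18, edgeR adjusted p = 0.000962). Its interaction of 0.88 (edgeR adjusted p = 0.0207) is lost without control replicate 1, control replicate 2, DSF replicate 1 or LPS replicate 2. Its paralogue Rab4b, at 6.01 to 7.79 CPM as group means, was called in no comparison.

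Rab3d and Rab19 fell with either agent. Rab3d, of the same secretory subfamily as Rab3a, was at 10.4 and 12.1 CPM in control, 6.87 and 5.78 with LPS, 6.29 and 6.40 with DSF, and 6.45 and 7.20 with both. All treated libraries were below control, and the LPS group overlapped each of the other treated groups. It changed by -0.83 with LPS (edgeR adjusted p = 0.00128) and by -0.83 with DSF (adjusted p = 0.000594). Its interaction of 0.94 (edgeR adjusted p = 0.0123) is lost without control replicate 2 or LPS replicate 2. Rab19 was at 3.72 and 2.87 CPM in control, 1.37 and 1.58 with LPS, 1.40 and 1.86 with DSF, and 0.96 and 1.47 with both. Its falls of 1.15 with LPS and 1.01 with DSF (log2, edgeR adjusted p = 0.0164 and 0.0159) are each lost without control replicate 1 or replicate 1 of the treated group, and that with LPS also without LPS replicate 2.

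**Figure D2:**
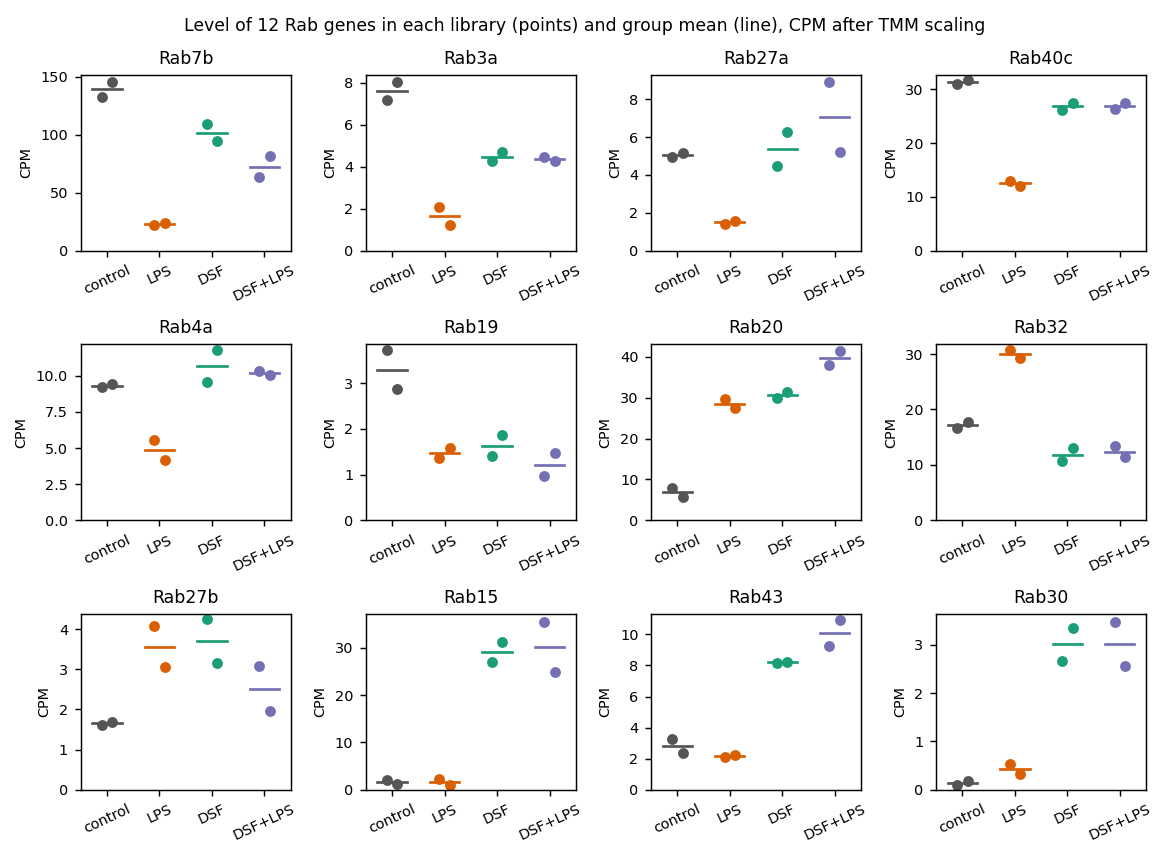
Level of 12 Rab genes in CPM (vertical axis from 0, a scale of its own for each gene) in the 4 groups, with 1 point per library and a line at the group mean. Rab7b, Rab3a, Rab27a, Rab40c and Rab4a are lowest with LPS alone, Rab20 is raised by either agent, and Rab15, Rab43 and Rab30 are high in the 4 libraries with DSF.

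Rab20 rose most with LPS. It acts on early endosomes and maturing phagosomes. It was at 7.91 and 5.66 CPM in control, 29.6 and 27.4 with LPS, 30.0 and 31.4 with DSF, and 38.1 and 41.3 with both. Control was lowest and the DSF+LPS pair highest, with the single agents close together between them. LPS raised it 4.22-fold (log2 2.08, SE 0.14, edgeR adjusted p = 2.48e-08) and DSF 4.55-fold (log2 2.19, SE 0.14, adjusted p = 8.75e-09). On top of DSF, the change with LPS was 0.37 and was not called (adjusted p = 0.0617), and the interaction was -1.71 (SE 0.19, edgeR adjusted p = 1.23e-05). That change is called with DESeq2, with its size factors, with no filter on low counts, and without DSF+LPS replicate 1. E230013L22Rik, a transcript on the opposite strand with overlapping exons, changed by 2.01 with LPS and 1.85 with DSF on the log2 scale (edgeR adjusted p = 0.00396 and 0.0035) and was at 3.11 CPM or less in every library.

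The other early endosome genes moved less. Of the 7 tested, 4 rose and none fell with LPS (Rab5a, Rab5b, Rab20 and Rab21), where 15.2% of all genes rose and 13.8% fell. With DSF 2 rose (Rab5a and Rab20) and 3 fell (Rab5b, Rab5c and Rab31), where 31.0% of all genes rose and 27.1% fell. Rab5a, Rab5b and Rab5c are paralogues that share the control of early endosome fusion. Rab5a was at 43.2 and 42.4 CPM in control, 57.2 and 58.9 with LPS, 74.3 and 67.1 with DSF, and 54.4 and 59.5 with both. The DSF pair was highest, control lowest, and the groups with LPS overlapped. It changed by 0.44 with LPS (SE 0.09, edgeR adjusted p = 0.00132), by 0.73 with DSF (SE 0.09, adjusted p = 5.82e-06), and by -0.31 with LPS on top of DSF (SE 0.09, adjusted p = 0.0303). The last call is lost without DSF replicate 1 or DSF+LPS replicate 1 and when those groups are fitted alone. The interaction was -0.76 (SE 0.12, edgeR adjusted p = 0.000497).

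With DSF, Rab5b changed by -0.36 (edgeR adjusted p = 0.00628, lost without DSF replicate 2) and Rab5c by -0.18 (adjusted p = 0.0412). Rab5b stood at 40.2 and 40.7 CPM in control and 33.2 and 29.8 with DSF, and Rab5c at 218 and 205 in control and 183 and 190 with DSF. Rab5a and its paralogues thus differed in sign with the drug. The Rab5c call is lost without any 1 of the 4 libraries and with DESeq2, and the LPS rise of Rab5b, 0.29 (edgeR adjusted p = 0.0367), is lost in the same way. Rab31, a Rab of trans-Golgi and endosome transport, fell from 136 and 135 CPM in control to 83.0 and 84.0 with DSF (log2 -0.70, SE 0.07, edgeR adjusted p = 1.01e-06).

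Rab32, a Rab of lysosome-related organelles that macrophages use against intracellular bacteria, moved in opposite directions with the agents. It was at 16.7 and 17.7 CPM in control, 30.8 and 29.4 with LPS, 10.6 and 13.0 with DSF, and 13.4 and 11.4 with both. The LPS pair was highest, and the 4 libraries with DSF overlapped below control. LPS changed it by 0.81 (SE 0.13, edgeR adjusted p = 0.000179) and DSF by -0.55 (SE 0.13, adjusted p = 0.00301). With both agents it was at 41.2% of its LPS level (log2 -1.28, SE 0.13, edgeR adjusted p = 8.39e-07). Its interaction of -0.73 (SE 0.19, adjusted p = 0.0127) is lost without control replicate 1, DSF replicate 2 or LPS replicate 1.

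Of the 6 recycling genes tested, Rab11a rose and Rab4a fell with LPS. That is 16.7% each way, near the 15.2% of all genes that rose and the 13.8% that fell. Rab10, listed with the exocytic and secretory genes, brings TLR4 to the macrophage surface. It was at 132 and 138 CPM in control, 174 and 172 with LPS, 167 and 157 with DSF, and 142 and 164 with both. Control was lowest, and the LPS pair lay just above the DSF libraries. LPS changed it by 0.35 (SE 0.08, edgeR adjusted p = 0.00315) and DSF by 0.26 (adjusted p = 0.0104). The DSF call and the interaction of -0.44 (edgeR adjusted p = 0.0118) are each lost without control replicate 1 or DSF replicate 1. Rab11a, a marker of the recycling endosome known for carrying TLR4 to phagosomes, was at 52.5 and 60.3 CPM in control, 75.3 and 74.1 with LPS, 53.3 and 55.8 with DSF, and 57.4 and 45.0 with both. The LPS pair was above all others, which overlapped. It changed by 0.40 with LPS (SE 0.11, edgeR adjusted p = 0.00998), a call lost without control replicate 1 or either LPS library. Its interaction of -0.49 (edgeR adjusted p = 0.0342) is lost without any library but control replicate 2 and DSF+LPS replicate 1. Both calls are also lost with library sizes alone.

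Rab14, which moves cargo between the Golgi, endosomes and phagosomes, responded to the drug. It was at 158 and 169 CPM in control, 166 and 171 with LPS, 112 and 109 with DSF, and 86.2 and 97.0 with both. The libraries with DSF were all below those without, and lowest with both agents. DSF changed it by -0.56 (SE 0.08, edgeR adjusted p = 1.86e-05), and on top of LPS by -0.88 (SE 0.08, adjusted p = 1.53e-07). Rab35, of a rapid recycling route, fell with DSF by a like amount (log2 -0.56, SE 0.08, edgeR adjusted p = 2.59e-05). Rab11b rose slightly (0.35, adjusted p = 0.00528), a call lost without control replicate 1 or DSF replicate 1.

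DSF alone raised 13 Rab genes and lowered 15. Among all genes tested 31.0% rose and 27.1% fell, against 27.7% and 31.9% of the Rab genes. The median log2 fold change was -0.05 over Rab genes and 0.05 over all. A rise of 2-fold or more was seen in 6 (Rab30, Rab33a, Rab15, Rab20, Rab43 and Rab27b), and a fall of that size in Rab19 alone. That is 12.8% and 2.13% of the Rab genes, where 17.6% and 5.18% of all genes changed by as much. With library sizes alone, 12 rose and 17 fell. The comparison shares its control libraries with that of LPS.

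Rab15 had the largest rise with DSF among members above 1 CPM in control. It is a Rab of the recycling endosome and of secretion, known mainly from neurons. It was at 2.12 and 1.18 CPM in control, 2.21 and 1.10 with LPS, 27.0 and 31.2 with DSF, and 35.5 and 24.9 with both. The 4 libraries with the drug lay far above the other 4, and in each set the libraries with and without LPS overlapped. DSF raised it 17.9-fold (log2 4.16, SE 0.27, edgeR adjusted p = 9.02e-09), and the difference on top of LPS was 4.19 (SE 0.27, adjusted p = 5.19e-09). Max, the next gene upstream on the same strand, changed by -0.43 with DSF, and Fntb, which overlaps Rab15 without shared exons on the opposite strand, by -0.37 (edgeR adjusted p = 0.00467).

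Rab30 and Rab43, both Golgi Rabs, also rose with DSF. Rab30 was at 0.10 and 0.17 CPM in control, 0.54 and 0.33 with LPS, 2.67 and 3.35 with DSF, and 3.48 and 2.56 with both. Rab43 was at 3.26 and 2.35 CPM in control, 2.11 and 2.25 with LPS, 8.14 and 8.26 with DSF, and 9.23 and 10.9 with both. In both genes the libraries with the drug lay above all of those without. DSF changed Rab30 by 4.35 (SE 0.50, edgeR adjusted p = 3.48e-06) and Rab43 by 1.56 (SE 0.21, adjusted p = 1.50e-05). On top of LPS the differences were 2.78 (SE 0.41, edgeR adjusted p = 3.62e-05) and 2.20 (SE 0.21, adjusted p = 4.03e-07). Of the neighbours upstream on the same strand, Isy1, before Rab43, changed by -0.35 (edgeR adjusted p = 0.00346), and Ccdc90b, before Rab30, was not called (adjusted p = 0.168). Gm44423, which overlaps Rab43 on the same strand without shared exons, rose with DSF too (1.35, edgeR adjusted p = 0.0367) and was at 1.56 CPM or less in every library. Gm45140, whose exons overlap those of Rab43 on that strand, was not tested. It was at 0 and 0.087 CPM in control, 0.245 and 0.143 with LPS, 0.271 and 0.671 with DSF, and 0.403 and 0.382 with both, so reads of the 2 genes may be shared.

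Rab33a stayed under 1 CPM in all libraries. It had 1 count in the control group, 3 with LPS, 22 with DSF and 18 with both. The CPM ratio was 22.4 for DSF to control, with a 95% counting interval from 3.63 to 926.1, and 6.49 for DSF+LPS to LPS, from 1.90 to 34.4. Such intervals cover counting error only. Both were called with edgeR, but the latter is not called without LPS replicate 1, without DSF+LPS replicate 2 or with DESeq2. The fitted log2 change with DSF, 4.18, was 3.44 without control replicate 1 and 6.43 without control replicate 2.

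Smaller changes with DSF spread over the remaining roles. Of the 6 late endosome and lysosome genes tested, Rab7, Rab12 and Rab29 rose and Rab7b and Rab24 fell, where 31.0% of all genes rose and 27.1% fell. The call of Rab24 is lost without control replicate 1 or either DSF library, and with DESeq2. Rab7 changed by 0.28 (SE 0.07, edgeR adjusted p = 0.00196). Rab12, a Rab of transport to lysosomes, rose with each agent and with LPS on top of the drug. It was at 31.2 and 30.9 CPM in control, 43.9 and 50.4 with LPS, 39.4 and 44.0 with DSF, and 62.7 and 58.5 with both. The DSF+LPS pair was above all others. Its LPS response was 0.60 without DSF (edgeR adjusted p = 0.000255) and 0.54 with it (adjusted p = 0.00327, lost without DSF replicate 1).

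Rab8a and Rab8b, paralogues of Golgi-to-surface transport, moved apart. Rab8a was at 80.9 and 75.4 CPM in control, 80.8 and 77.4 with LPS, 49.3 and 47.6 with DSF, and 46.5 and 45.7 with both. It fell with DSF by 0.69 (SE 0.08, edgeR adjusted p = 4.41e-06), and its control and LPS libraries overlapped. Rab8b was at 109 and 114 CPM in control, 156 and 170 with LPS, 110 and 98.5 with DSF, and 81.2 and 94.9 with both. It rose with LPS by 0.55 (SE 0.09, edgeR adjusted p = 0.000234) and was not called with DSF alone. Its interaction was -0.79 (SE 0.13, adjusted p = 0.000429).

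Among ER and Golgi Rabs, Rab1b, Rab2a and Rab19 fell with DSF and Rab18, Rab30, Rab33a and Rab43 rose, of 14 tested. These are 21.4% and 28.6% of the group, against 27.1% and 31.0% of all genes. Rab1b and Rab2a, abundant in these cells, changed by -0.23 and -0.24 (edgeR adjusted p = 0.0106 and 0.0171). Both calls are lost without control replicate 1, that of Rab1b also without DSF replicate 1 and that of Rab2a without DSF replicate 2. Rab23, linked to ciliary and Hedgehog signalling, fell by 0.49 (adjusted p = 0.0132), a call lost without control replicate 2 or DSF replicate 2.

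In cells given LPS, prior DSF raised 15 Rab genes and lowered 15, where 33.7% of all genes rose and 31.6% fell. The Rab shares were both 31.9%. With library sizes alone, 13 rose and 17 fell. Rab15, Rab30, Rab33a, Rab27a, Rab43, Rab7b, Rab3a, Rab40c and Rab4a were at least 2-fold higher, and Rab32 at least 2-fold lower. These are 19.1% and 2.13% of the Rab genes, against 19.3% and 9.86% of all genes. Rab8b changed by -0.89, Rab14 by -0.88, Rab6a by -0.86, Rab31 by -0.82 and Rab8a by -0.78, each with an edgeR adjusted p of at most 2.36e-06. Rab6a, a Rab of Golgi-to-ER transport, was at 55.6 and 59.8 CPM with LPS and at 34.1 and 29.5 with both agents.

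LPS on top of DSF moved few genes, among the Rabs and among all genes tested. It raised Rab12 and Rab1b and lowered Rab7b, Rab6a, Rab5a, Rab14 and Rab31. These are 4.26% and 10.6% of the Rab genes, against 5.52% of all genes raised and 6.53% lowered. All 7 calls are lost under at least 1 alternative. None was called without DSF replicate 1, and without DSF+LPS replicate 1 there were 4 rises and 3 falls. With only those 2 groups fitted, 1 rose and none fell, and with library sizes alone 1 rose and 12 fell, with the median of all genes at -0.11 in place of 0.00.

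The interaction asks directly whether the LPS response differed with the drug. It was above 0 for 6 Rab genes (Rab3a, Rab27a, Rab7b, Rab40c, Rab3d and Rab4a) and below 0 for 11 (Rab20, Rab27b, Rab8b, Rab5a, Rab32, Rab6a, Rab21, Rab11a, Rab18, Rab10 and Rab1a). Among all genes tested, 7.58% were above 0 and 12.2% below, against 12.8% and 23.4% of the Rab genes. At 2-fold or more, 2.21% of all genes were above 0 and 4.01% below, against 8.51% and 4.26% of the Rab genes. The larger Rab share below 0 was thus not seen among changes of that size. The interaction uses the same control and LPS libraries as the LPS comparison, so the 2 are not independent. The call of Rab18 is lost without control replicate 2, DSF replicate 1 or LPS replicate 2, and that of Rab1a without any library but DSF+LPS replicate 1. That of Rab1a is also lost with DESeq2, with its size factors, with library sizes alone and with no filter on low counts. The count below 0 was 6 without control replicate 1, 6 without DSF replicate 1 and 7 without LPS replicate 1, and the count above 0 was 4 without control replicate 2 or LPS replicate 2.

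**Figure D3:**
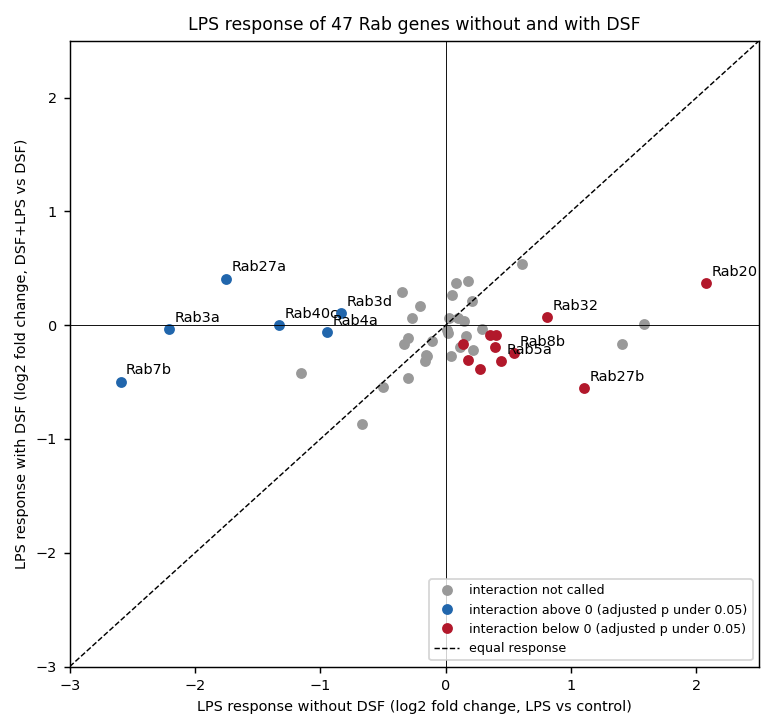
Log2 fold change with LPS in cells given DSF (vertical axis) against that in cells without it (horizontal axis) for 47 Rab genes, with the dashed line at equal responses. The 6 blue points, interaction above 0, lie at -0.83 or lower on the horizontal axis and between -0.50 and 0.41 on the vertical one, and the 11 red points, interaction below 0, lie below the line.

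For the 6 genes with an interaction above 0, the LPS response ran from -2.59 to -0.83 without the drug and from -0.50 to 0.41 with it. Values with the drug were -0.03 for Rab3a, 0.41 for Rab27a, 0.00 for Rab40c, -0.06 for Rab4a and 0.10 for Rab3d, none of them called, and the sign of each of the 5 turns under at least 1 alternative setting. Their levels in the DSF group were not all those of control: Rab3a and Rab3d fell with the drug alone, while Rab27a and Rab40c changed by 0.07 and -0.22, with no call (edgeR adjusted p = 0.824 and 0.0717). Rab20 and Rab27b, the 2 lowest in the interaction, had both risen with DSF alone. Rab21, an endosome Rab, changed by 0.39 with LPS alone (edgeR adjusted p = 0.00209) and had an interaction of -0.59 (adjusted p = 0.00266).

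Genes that act on Rabs were counted from lists of known family members. Of 34 GEF genes, all tested, LPS lowered 10 and raised 3, which is 29.4% and 8.82%, where 13.8% of all genes fell and 15.2% rose. Of 37 GAP genes, 34 were tested, and LPS lowered 11 and raised 2. With DSF, 14 GEF genes fell and 6 rose, and 14 GAP genes fell and 8 rose. Falls were 41.2% of each list, where 27.1% of all genes fell, and rises were 17.6% and 23.5%, where 31.0% of all genes rose. In the interaction, 5 GEF genes were above 0 and none below, and 7 GAP genes were above 0 and 1 below, where 7.58% of all genes were above 0 and 12.2% below. The GEF count above 0 ran from 2, without control replicate 2, to 9, without DSF+LPS replicate 2.

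Rab3il1, which encodes a GEF of the Rab8 branch, had the deepest fall with LPS and the highest interaction of the GEF list, and Rin2 the deepest fall with DSF. Rab3il1 was at 53.1 and 51.8 CPM in control, 12.7 and 10.3 with LPS, 7.83 and 9.49 with DSF, and 10.7 and 8.56 with both. All treated libraries lay far below control, and the DSF+LPS group overlapped each of the other treated groups. It changed by -2.19 with LPS (SE 0.14, edgeR adjusted p = 1.09e-08) and by -2.60 with DSF (SE 0.14, adjusted p = 1.63e-09), with an interaction of 2.35 (SE 0.21, adjusted p = 1.58e-06). Rin2, a GEF of Rab5, was at 63.1 and 69.7 CPM in control, 28.1 and 25.2 with LPS, 7.60 and 6.19 with DSF, and 6.91 and 7.20 with both. The 4 libraries with the drug were lowest. It changed by -1.32 with LPS and by -3.26 with DSF (edgeR adjusted p = 2.72e-07 and 4.83e-11).

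Dennd2c, of the DENN family of GEFs, fell from 17.6 and 17.5 CPM to 7.06 and 4.97 with LPS (log2 -1.54, edgeR adjusted p = 1.85e-05). Its interaction of 0.98 (adjusted p = 0.018) is lost without either control library, DSF replicate 2 or LPS replicate 2. Sbf2 fell with DSF from 115 and 125 CPM to 46.6 and 43.3 (log2 -1.42, SE 0.10, edgeR adjusted p = 1.83e-08).

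Among GAP genes, Tbc1d9 had the largest rise with DSF. It was at 12.0 and 10.4 CPM in control, 12.8 and 12.7 with LPS, 93.4 and 102 with DSF, and 110 and 109 with both. The 4 libraries with the drug lay far above the other 4 (log2 3.12 with DSF alone, SE 0.10, edgeR adjusted p = 6.92e-12). Tbc1d2b and Tbc1d14 each changed by -1.38 with DSF (edgeR adjusted p = 3.61e-08 and 3.32e-08). Tbc1d4, a GAP known from insulin-driven glucose transport, fell with LPS from 17.5 and 18.9 CPM to 6.33 and 6.31 (log2 -1.52, edgeR adjusted p = 4.89e-06). Tbc1d8 and Sgsm2 changed by -1.41 and -1.27 (adjusted p = 0.00165 and 3.49e-06). The interaction was 1.08 for Tbc1d2, a GAP of Rab7, 1.06 for Tbc1d4 and 0.99 for Sgsm2 (edgeR adjusted p = 0.000392, 0.00526 and 0.00165).

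Effector genes went both ways. Of 54 listed, 43 were tested: 9 rose and 10 fell with LPS, 15 rose and 16 fell with DSF, and the interaction was above 0 for 7 and below 0 for 9. With LPS, 20.9% rose and 23.3% fell, against 15.2% and 13.8% of all genes. With DSF, 34.9% rose and 37.2% fell, against 31.0% and 27.1%, and in the interaction 16.3% were above 0 and 20.9% below, against 7.58% and 12.2%. Rab11fip1, which binds Rab11 on recycling endosomes, was at 25.8 and 26.1 CPM in control, 111 and 115 with LPS, 29.1 and 28.1 with DSF, and 42.2 and 51.9 with both. The LPS pair stood far above the others. It changed by 2.12 with LPS (SE 0.10, edgeR adjusted p = 3.90e-10), with an interaction of -1.41 (SE 0.14, adjusted p = 5.51e-06). Plekhm1, which joins Rab7 to lysosome fusion, was at 164 and 174 CPM in control, 68.9 and 64.4 with LPS, 120 and 126 with DSF, and 116 and 118 with both. LPS changed it by -1.34 (SE 0.07, edgeR adjusted p = 2.51e-09).

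Eea1, the Rab5 effector that tethers early endosomes, was at 83.3 and 88.1 CPM in control, 150 and 156 with LPS, 287 and 284 with DSF, and 252 and 234 with both. No groups overlapped, and the drug gave the highest levels. It changed by 1.74 with DSF (SE 0.07, edgeR adjusted p = 8.19e-11). Optn, a Rab8 effector and autophagy receptor, changed by 1.66 with LPS and 3.44 with DSF (edgeR adjusted p = 4.89e-06 and 3.52e-10). Micall1, an effector on recycling tubules, changed by 1.54 with DSF (adjusted p = 1.45e-07). The related Mical1 and Micall2 had interactions of 1.37 and -1.53 (edgeR adjusted p = 1.56e-05 and 0.000264).

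Of 7 genes of prenylation and membrane cycling, all tested, 2 rose with LPS (Rabggtb and Chm) and none fell, and with DSF 2 rose (Rabggtb and Rabac1) and 2 fell (Chml and Gdi2). Over all genes, 15.2% rose and 13.8% fell with LPS, and 31.0% and 27.1% with DSF. The DSF count of rises was 1 without any 1 of the 4 libraries. Rabggtb, a subunit of the enzyme that attaches the prenyl anchor, was at 76.4 and 68.1 CPM in control, 102 and 97.3 with LPS, 114 and 129 with DSF, and 153 and 120 with both. It was lowest in control. It changed by 0.47 with LPS (edgeR adjusted p = 0.00395, lost without control replicate 2) and 0.75 with DSF (adjusted p = 3.35e-05). Chml, an escort protein that presents Rabs to that enzyme, changed by -1.12 with DSF (edgeR adjusted p = 9.39e-05). The LPS rise of Chm, 0.33 (edgeR adjusted p = 0.0473), is lost without any 1 of the 4 libraries, with library sizes alone, with no filter on low counts and with DESeq2. Of 5 Rab-like GTPase genes tested out of 7 listed, 1 fell with LPS and none rose.

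**Figure D4:**
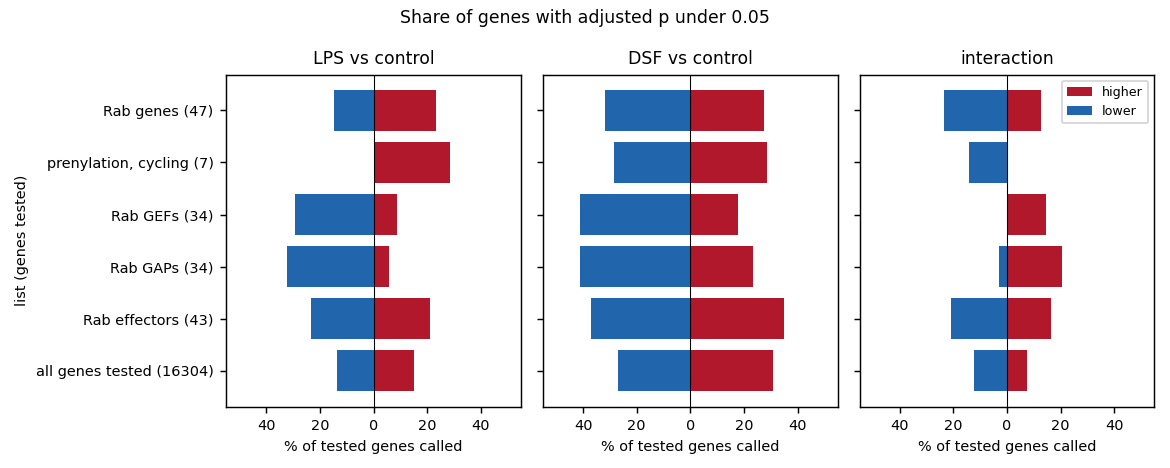
Percent of tested genes that were higher (red, to the right) or lower (blue, to the left) at adjusted p under 0.05, for the Rab genes, 4 lists of genes that act with them and all 16304 genes tested, in 3 comparisons. With LPS, 29.4% of the GEF genes are lower and 8.82% higher, while 13.8% and 15.2% of all genes are.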

How the data were processed

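The authors deposited raw read counts for each gene in 8 libraries, 4 groups of 2. The submitters' processing notes list the build GRCm39 and DESeq2 and give neither a role. For the aligner, counter, annotation and strand handling, nothing is given in the sources used here. Reads of close paralogues or overlapping genes may therefore be shared. Symbols came from GENCODE M21 (52081 of 55414 identifiers matched), as did exon lengths. Libraries of 17822041 to 21694922 counts were analysed with edgeR 4.0.16 in R 4.3.3: trimmed-mean scaling, filterByExpr (minimum count 10, minimum total 15), which left 16304 genes, and a quasi-likelihood test in 1 fit with 1 mean per group. P-values were adjusted by Benjamini-Hochberg over all genes tested. SE is |log2 fold change| / √F of the test. CPM are scaled by the same factors, except those of cell type marker genes and their sums. The interaction is the LPS response with DSF minus that without. Levels are mean ± SD. The fit was also run on simulated counts, drawn with the spread estimated from these libraries. The outcome of that run is not given, and no result here rests on it. DESeq2 1.42.0 and other settings served as alternatives.

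Members, lists, motifs and naming rule were chosen with earlier results of these data known. The rule names members called with at least a 2-fold change and a mean of 1 CPM in a group, 8 members linked to TLR4 or phagosomes, and up to 3 called genes per partner list and comparison with a mean of 5 CPM. Other genes named were chosen after their values were seen. A gene of the partner lists is not reported here.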

Additional observations from a re-analysis of the deposited data

Results flagged for a closer look

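The LPS response differed with and without DSF, by the edgeR interaction test, for 17 of the 47 Rab genes tested. Of the Rab genes 12.8% were above 0 and 23.4% below, against 7.58% and 12.2% of all genes tested. At 2-fold or more, 8.51% of the Rab genes were above 0 and 4.26% below, against 2.21% and 4.01% of all genes. Values are the log2 response with the drug minus that without. They were 2.17 for Rab3a, 2.17 for Rab27a, 2.10 for Rab7b, 1.33 for Rab40c, 0.94 for Rab3d and 0.88 for Rab4a. They were -1.71 for Rab20, -1.66 for Rab27b, -0.79 for Rab8b, -0.76 for Rab5a, -0.73 for Rab32, -0.66 for Rab6a, -0.59 for Rab21, -0.49 for Rab11a, -0.48 for Rab18, -0.44 for Rab10 and -0.30 for Rab1a. The calls of Rab3a, Rab27a, Rab7b, Rab40c, Rab20, Rab8b, Rab5a, Rab6a and Rab21, 9 in all, held under every alternative run.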

How the results depend on the processing

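Of the called changes of Rab genes, 12 of 18 held under every alternative with LPS, 16 of 28 with DSF, 23 of 30 for DSF+LPS against LPS, 0 of 7 for DSF+LPS against DSF and 9 of 17 in the interaction. No called change turned direction.

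With library sizes alone, LPS raised 7 Rab genes and lowered 13 (all genes 1614 and 3773), raised 1 GEF, 1 GAP and 1 prenylation or cycling gene and lowered 1 of the latter, DSF raised 1 of them, and DSF+LPS against DSF gave 1 and 12 (465 and 2189). The share of rises among called Rab genes went from 61.1% to 35% with LPS and from 28.6% to 7.69% for DSF+LPS against DSF; among all genes it went from 52.5% to 30.0% and from 45.8% to 17.5%. With only the groups compared, DSF+LPS against DSF gave 1 rise and 0 falls (342 and 216). With no filter on low counts, 1 GEF gene rose with LPS. Of the prenylation and cycling genes, 1 rose with LPS (2 with the main settings) and 1 with DSF (2) with no filter or with DESeq2. For prenylation and cycling genes in the interaction, 1 was above 0 (with the main settings 0) with DESeq2 size factors, library sizes alone, no filter, a filter of 1 CPM in 2 libraries, or DESeq2.

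Leaving out each library in turn gave the following ranges. Rab genes numbered 7 to 8 rises with LPS, 10 to 12 falls with DSF, 0 to 4 rises and 0 to 6 falls for DSF+LPS against DSF, and 4 to 7 above and 6 to 11 below 0 in the interaction. With DSF, 9 to 13 rose. For DSF+LPS against LPS, 12 to 14 rose and 13 to 16 fell. Over all genes there were 1731 to 1794 rises and 1414 to 1566 falls with LPS, and 4159 to 4367 rises and 3613 to 4084 falls with DSF. There were 4578 to 5281 rises and 4461 to 4924 falls for DSF+LPS against LPS. All genes also gave 226 to 1211 rises and 121 to 1170 falls for DSF+LPS against DSF. In the interaction, 717 to 1743 of all genes were above 0 and 1268 to 2039 below 0. GEF genes numbered 1 to 2 rises with LPS, and 2 to 9 above and 0 to 1 below 0. GAP genes numbered 1 to 2 rises with LPS, 5 to 8 with DSF and 0 to 1 below 0. Prenylation and cycling genes numbered 0 to 1 rises with LPS, 1 with DSF in each case, and 0 to 1 above and 0 to 2 below 0.

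Changes with no call turned sign in these cases. With library sizes alone, DSF+LPS against DSF gave -0.104 for Rab40c, -0.001 for Rab3d and -0.033 for Rab32, Rab27a with DSF was -0.031, and Rab15 with LPS was -0.130. Leaving out 1 library, DSF+LPS against DSF ran from -0.093 to 0.040 for Rab3a, from -0.031 to 0.770 for Rab27a, from -0.025 to 0.037 for Rab40c, from -0.201 to 0.097 for Rab4a and from -0.059 to 0.221 for Rab32. Rab27a with DSF ran from -0.180 to 0.284 and Rab15 with LPS from -0.555 to 0.484. The causes were not tested.

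Libraries share replicate numbers 1 and 2. The log2 difference between replicates 1 and 2 was taken in each group and correlated between groups over the genes tested. These correlations ran from -0.17 to 0.12, so libraries were not paired. With the replicate number as a block, Rab genes gave 11 rises and 7 falls with LPS, 13 and 15 with DSF, 16 and 15 for DSF+LPS against LPS, 2 and 5 for DSF+LPS against DSF, and 6 and 12 in the interaction. The block ended no Rab call and 1 other, the LPS rise of Chm (1 of 7 prenylation and cycling genes rose). With groups of 2 and members under 1 CPM such as Rab33a, depth limits which small changes can be seen.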
